A study of Mus musculus with 4 samples.

Results

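Id1, Id2, Id3, Tgfbi, Fn1, Tsc22d1, Gadd45b and Rgcc are 8 genes long known as transcriptional targets of TGFβ or BMP, and the binding of SMAD4 around them was examined in mouse alveolar macrophages (AMs). The 8 were chosen by name from the 26089 curated RefSeq genes of the mouse. Peaks were assigned to a gene when the summit, the highest point of the peak, lay in the gene body or within 50 kb of a transcription start site (TSS) of the gene. AMs came from the bronchoalveolar lavage of 9-wk-old wild-type C57BL/6J mice and were sorted by flow cytometry. SMAD4 was mapped with 2 antibodies used in combination, by HT-ChIPmentation, in which Tn5 transposase puts sequencing adapters on the immunoprecipitated chromatin. The labels give 4 samples, 2 SMAD4 libraries and 2 inputs without antibody. There was 1 condition, with no SMAD4-deficient or cytokine-treated cells, and neither the labels nor the methods say whether the libraries came from separate mice or from pooled animals. No group was compared with another, and values of both libraries are set side by side without a test.

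TGFβ and BMP ligands bind pairs of serine/threonine kinase receptors, which phosphorylate SMAD2 and SMAD3 or SMAD1, SMAD5 and SMAD9. The phosphorylated SMADs join SMAD4 and bind DNA together with transcription factors already in place in the cell. Id1, Id2 and Id3 encode helix-loop-helix proteins without a DNA-binding region that hold E proteins away from DNA and are BMP targets in many cell types. Tgfbi and Fn1 encode secreted matrix proteins, Tsc22d1 a leucine zipper regulator, Gadd45b a stress-response protein of p38 signaling, and Rgcc a regulator of the cell cycle. In the lung, TGFβ is a niche signal that AMs need for their development and maintenance.

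The 13 SMAD4-bound regions found in both libraries around these genes lay 1642 to 35828 bp from the TSS, and none covered it. Sequences of 201 bp centred on the summits are given for the regions that carry the account, read from the RefSeq GRCm38 genome on the plus strand, 5′ to 3′. Capitals mark the matches, on either strand, to 10 short consensus strings. These were the SMAD box CAGACA, its variant GTCTGG, the SMAD palindrome GTCTAGAC (together the SMAD strings), the GC-rich SMAD element GGCGCC, the PU.1-type ETS string GAGGAAGT, the further ETS string CAGGAAGT, the C/EBP string TTGCNNAA, the AP-1 string TGACTCA, the RUNX string TGTGGT and the E-box CACGTG. The run TGTCTGG holds both CAGACA, on the other strand, and GTCTGG. First are the strongest regions of Id1, Id3, Tgfbi, Tsc22d1 and Rgcc, at chr2:152741668-152741868, chr4:136179550-136179750, chr13:56611212-56611412, chr14:76428927-76429127 and chr14:79290671-79290871, each named by the distance of its summit from the TSS.
Id1, 5517 bp downstream: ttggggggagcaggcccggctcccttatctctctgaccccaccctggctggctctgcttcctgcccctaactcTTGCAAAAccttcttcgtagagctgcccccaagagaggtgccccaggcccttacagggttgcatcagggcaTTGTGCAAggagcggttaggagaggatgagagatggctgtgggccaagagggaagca
Id3, 35828 bp downstream: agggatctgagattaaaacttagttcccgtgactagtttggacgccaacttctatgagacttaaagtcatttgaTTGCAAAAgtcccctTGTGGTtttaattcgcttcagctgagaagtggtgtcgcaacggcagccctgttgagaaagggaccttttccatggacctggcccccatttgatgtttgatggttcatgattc
Tgfbi, 1726 bp downstream: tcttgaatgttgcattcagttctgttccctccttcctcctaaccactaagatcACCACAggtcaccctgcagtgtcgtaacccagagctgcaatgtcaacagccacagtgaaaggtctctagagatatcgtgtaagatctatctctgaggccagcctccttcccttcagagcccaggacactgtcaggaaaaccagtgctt
Tsc22d1, 13206 bp downstream: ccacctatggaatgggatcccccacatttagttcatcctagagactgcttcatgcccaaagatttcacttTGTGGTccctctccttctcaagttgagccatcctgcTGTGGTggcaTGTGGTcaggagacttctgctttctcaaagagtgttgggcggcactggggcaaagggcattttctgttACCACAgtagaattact
Rgcc, 10864 bp downstream: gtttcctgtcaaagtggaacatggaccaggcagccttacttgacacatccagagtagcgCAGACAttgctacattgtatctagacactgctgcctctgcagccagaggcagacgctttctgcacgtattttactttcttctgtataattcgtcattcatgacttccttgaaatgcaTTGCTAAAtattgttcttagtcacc

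The last windows show sites that the strongest regions do not stand for, namely the upstream region of Tgfbi with a SMAD and an ETS string (chr13:56593313-56593513), the upstream region of Id3 with a C/EBP and an AP-1 string (chr4:136117190-136117390), and the promoter peak of Id3 found in replicate 2 alone (chr4:136143073-136143273). The windows of Tgfbi, of Tsc22d1 and of the upstream Id3 region were picked after their values were seen.
Tgfbi, 16173 bp upstream: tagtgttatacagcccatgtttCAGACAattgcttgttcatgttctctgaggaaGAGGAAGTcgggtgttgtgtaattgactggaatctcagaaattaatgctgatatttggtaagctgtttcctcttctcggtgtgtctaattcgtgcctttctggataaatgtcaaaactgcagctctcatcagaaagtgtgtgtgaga
Id3, 26532 bp upstream: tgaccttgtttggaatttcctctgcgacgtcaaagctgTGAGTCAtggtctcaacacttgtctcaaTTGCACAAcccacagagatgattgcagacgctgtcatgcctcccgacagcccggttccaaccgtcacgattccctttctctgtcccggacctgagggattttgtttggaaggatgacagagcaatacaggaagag
Id3, 649 bp upstream: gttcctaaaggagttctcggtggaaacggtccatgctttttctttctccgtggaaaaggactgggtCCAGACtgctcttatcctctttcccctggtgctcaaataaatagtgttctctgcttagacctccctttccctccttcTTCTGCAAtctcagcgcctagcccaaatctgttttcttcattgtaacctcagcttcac

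Replicate 1 had 16369 peaks and replicate 2 had 19015 across the genome. Each peak has a fold, the fragments stacked at the summit plus 1 over the control level plus 1, and both terms were recovered from the fold and its −log10 p. The genome-wide control level was 2.08 fragments in replicate 1 and 1.22 in replicate 2, and the median summit held 17 and 14 fragments. Equal fragment counts therefore gave a higher fold in replicate 2. The weakest listed summits held 9 and 7 fragments. Where the local control level was higher, more fragments were needed to pass the q-value limit, so that binding below that limit at a gene without a peak was not detectable at this depth. Shared regions, formed by merging peaks of both libraries with 1 bp or more in common, made up 10964 of 23729 regions (46.2%). All 12 alveolar macrophage marker genes had a shared region by the same rule, with 48 in all, among them Chil3, Pparg and Siglecf. At Siglecf, 1 of 3 shared regions was nearest to its own TSS, and the strongest was nearest to Zfp715. For markers of other cell types the count was 5 of 10, among them Ncr1, Scgb1a1, Pecam1 and Alb. The share over all genes, beside both counts, was 38%, and binding near a gene is not its expression. Nearest to a shared region were 11 of the 12 alveolar macrophage markers and 4 of the 10 other markers, against 19% of all genes.

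Of the 8 target genes, 5 had at least 1 shared region, namely Id1, Id3, Tgfbi, Tsc22d1 and Rgcc. Among all 26089 genes the share was 38%. Gadd45b had peaks of replicate 2 alone, and Id2 and Fn1 had no peak in either library. By library, 5 of 8 genes had a peak in replicate 1, where 45.3% of all genes had one, and 6 of 8 in replicate 2, where the share was 51.9%. Shared regions numbered 13, with 1 at Id1, 2 at Id3, 6 at Tgfbi, 1 at Tsc22d1 and 3 at Rgcc. For 11 of the 13 the nearest TSS was that of the target gene itself, which left 4 genes nearest to a shared region, against 19% of all genes. The exceptions were both Id3 regions.

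**Figure D1:**
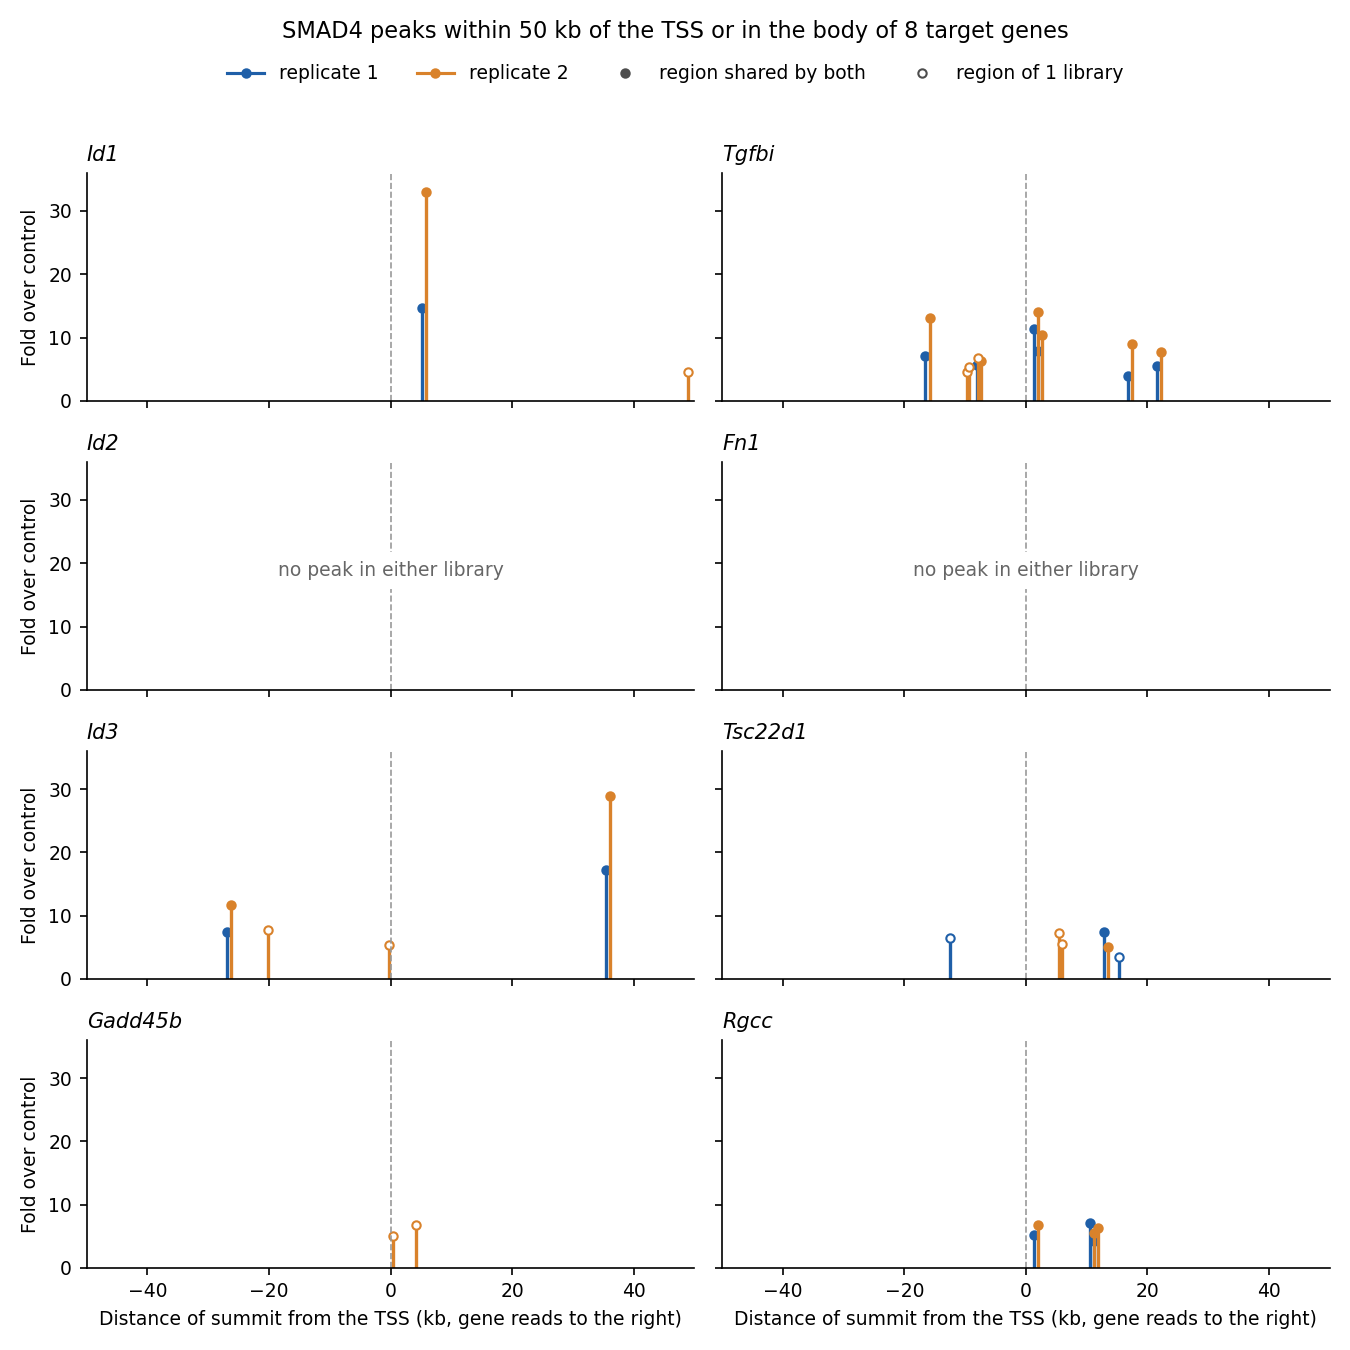
SMAD4 peaks of the 8 target genes, 1 panel per gene. The horizontal axis gives the distance of the region's summit from the TSS of the gene in kb, with the gene reading to the right, and the vertical axis the fold over control. Blue stands for replicate 1 and orange for replicate 2, drawn slightly apart, filled circles for regions of both libraries and open circles for regions of 1 library. Id1 and Id3 have the tallest regions, Tgfbi the most, and Id2 and Fn1 have none. The tallest region in the Id3 panel is nearest to E2f2.

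Among the inhibitors of DNA binding, Id1 and Id3 carried the strongest regions of the 8 genes. Id1 (chr2:152736251-152737410, plus strand) had its shared region at chr2:152741215-152742137, 5517 bp downstream of the TSS and past the end of the gene, in intergenic sequence. The fold was 14.6 in replicate 1 (q = 3.22e-39) and 32.9 in replicate 2 (q = 6.66e-96). The summits held 44 fragments (exact Poisson 95% interval 32.0 to 59.1) and 72 fragments (56.3 to 90.7), intervals that cover counting error only. Both libraries thus placed a high peak there, 57 bp apart at the summits, and the replicate 2 fold was 2.25 times that of replicate 1. The region ranked 1021 of the 10964 shared regions by the lower of its 2 folds. Its window held the C/EBP string 2 times, at 23 bp before and 48 bp after the summit, and no SMAD string. A peak of replicate 2 alone lay 48567 bp downstream of the Id1 TSS, with 4.60-fold enrichment and 10 fragments, nearer to Gm32211.

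Id3 (chr4:136143822-136145392, plus strand) had 2 shared regions, 1 on each side of the gene and both far from it. The stronger, at chr4:136179320-136180153, had a fold of 17.2 in replicate 1 and 28.9 in replicate 2, with 52 and 63 fragments at the summits. It ranked 655 of 10964. Although it met the rule for Id3 at 35828 bp downstream of its TSS, it lay in an intron of E2f2, which encodes an E2F transcription factor, 1132 bp upstream of an E2f2 TSS. Its window held the C/EBP string 22 bp before the summit and the RUNX string 8 bp before it. The weaker region, at chr4:136117076-136117484 and 26532 bp upstream, had folds of 7.47 and 11.7 with 22 and 25 fragments, and its nearest TSS was that of the noncoding gene Gm42329. The shared regions that the rule gave to Id3 were therefore both nearer to another gene, and the peak lists do not say which gene a region acts on.

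The peak nearest to the Id3 TSS was weaker and came from replicate 2 alone. It lay 649 bp upstream, in the promoter, taken as the stretch from 1 kb before a TSS to 100 bp after it, at chr4:136143105-136143313, with a fold of 5.41 and 11 fragments (95% interval 5.49 to 19.7). Another peak of replicate 2 alone lay 20556 bp upstream with a fold of 7.67 and 16 fragments. Replicate 1, the library with the higher control level, listed no peak at either place. The promoter window held the SMAD string GTCTGG, on the minus strand, and the C/EBP string.

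Id2 (chr12:25093799-25096092, minus strand) was listed without a peak in either library. The nearest shared region lay 81.9 kb upstream of its TSS at chr12:25177810-25178222, with folds of 5.52 and 12.6, and was nearest to Gm17746. Id4, the remaining member of the Id family, had no peak in either library under the same rule. SMAD4 peaks thus lay within the range of the rule at Id1 and Id3 of the 4 Id genes.

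Of the matrix genes, Tgfbi had the most regions of the 8 and Fn1 had none. Tgfbi (chr13:56609586-56639359, plus strand), also called βig-h3, encodes a secreted protein that binds integrins and collagens. It had 6 shared regions, a number reached or passed by 1.82% of all genes, and all 6 were nearest to the Tgfbi TSS. They ran from 16173 bp upstream to 21849 bp downstream of it. The strongest, at chr13:56611003-56611579, lay in intron 1 of a transcript with 17 exons, 1726 bp downstream, with folds of 11.4 and 14.0 and with 34 and 30 fragments at summits 7 bp apart. A second region of intron 1, at chr13:56611644-56612073, followed 2311 bp downstream with folds of 7.80 and 10.4. Both windows held the RUNX string and none of the SMAD strings.

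The region 16173 bp upstream of Tgfbi, at chr13:56593043-56593586, had folds of 7.15 and 13.1 with 21 and 28 fragments. Its window was the only 1 of the 13 with an ETS string, 42 bp before the summit, and CAGACA lay 75 bp before the summit. The region 7749 bp upstream (chr13:56601627-56601988) had folds of 5.67 and 6.28 with 18 fragments (95% interval 10.7 to 28.4) and 14 fragments (7.65 to 23.5). None of the 10 strings lay in its window of 201 bp, whereas the palindrome GTCTAGAC lay in a window of 401 bp, as in 0.666% of all shared regions. Intron 6 held the region with the lowest fold of the 13 in replicate 1, at chr13:56626542-56626828, with 3.88 against 9.02 in replicate 2. The region of intron 10, at chr13:56631353-56631549, had folds of 5.52 and 7.67 with 16 fragments in each library. Replicate 2 alone had 3 further peaks upstream, at 9965, 9711 and 8279 bp, with folds of 4.51, 5.41 and 6.77.

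Fn1 (chr1:71585473-71653234, minus strand) encodes fibronectin and has the second longest body of the 8 genes, 67762 bp, in which no peak of either library lay. The nearest shared region was strong, with folds of 18.2 and 19.0, but lay 69.2 kb upstream of the TSS at chr1:71721960-71722884, nearest to Apol7d. With the window widened to 100 kb, Fn1 gained 4 shared regions and Id2 gained 1, so that 7 of 8 genes had a shared region where 53.8% of all genes did.

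Rgcc and Tsc22d1 had shared regions of lower fold than the strongest of Id1, Id3 and Tgfbi, and Gadd45b had none. Rgcc (chr14:79288750-79301635, minus strand) encodes a small protein that responds to complement and to TGFβ. It had 3 shared regions, all in its introns and all nearest to its TSS, where 9.9% of all genes had 3 or more. The strongest by the lower fold, at chr14:79290552-79291081 in intron 3, had a fold of 7.16 in replicate 1 and 5.43 in replicate 2. Its control level in replicate 2 was 2.31 fragments, above the 1.22 of the genome. Its window held CAGACA, 38 bp before the summit, and a C/EBP string 80 bp after it. The neighboring region of intron 4 (chr14:79289963-79290219) had folds of 4.18 and 6.32, with 13 fragments in each library. In intron 2, 1642 bp from the TSS, the region at chr14:79299753-79300148 joined 3 peaks, 1 of replicate 1 with a fold of 5.20 and 2 of replicate 2 with 4.96 and 6.77.

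Tsc22d1 (chr14:76414961-76507765, plus strand) encodes the protein first described as TGFβ-stimulated clone 22. With 92805 bp and 5 TSSs it is the longest gene of the 8, and it had 1 shared region, in intron 3 of a transcript with 5 exons, 13206 bp downstream of a TSS. The region, at chr14:76428949-76429140, had a fold of 7.47 in replicate 1, with 22 fragments (95% interval 13.8 to 33.3), and 4.96 in replicate 2, with 10 fragments (4.80 to 18.4). Its window held the RUNX string 4 times and no other string. The libraries otherwise differed along this gene. Replicate 1 alone had peaks 12157 bp upstream (fold 6.50) and 15610 bp downstream (fold 3.38), and replicate 2 alone had peaks 5136 bp (7.22) and 5610 bp downstream (5.44). With a minimum fold of 5 in each library, Tsc22d1 lost its shared region.

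Gadd45b (chr10:80930091-80932204, plus strand) had 2 peaks, both of replicate 2. The first covered the TSS, with its summit 42 bp downstream in exon 1, at chr10:80930054-80930227, and had a fold of 4.96 with 10 fragments. The other lay past the gene, 3791 bp from the TSS at chr10:80933785-80933921, with a fold of 6.77 and 14 fragments. The nearest shared region lay 166.4 kb upstream, nearest to Dot1l, with folds of 7.47 and 10.4.

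None of the 8 genes had a shared region in its promoter. Over all genes the share was 2.79%, so that a count of 0 among 8 does not set these genes apart. Replicate 1 had a promoter peak at 0 of 8 genes, with a share of 3.23% over all genes. Replicate 2 had promoter peaks at Id3 and Gadd45b, 2 of 8, where the share was 5.81%. Of the 13 shared regions, 9 were intronic and 4 intergenic, and 10 lay downstream of the TSS of the target gene. Over all shared regions, 49.3% were intronic, 40.5% intergenic and 6.42% in promoters. Of the 9 intronic regions 8 lay in the body of the target gene, and the remaining region was that of E2f2.

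The strongest shared regions of the 5 genes differed in fold, with those assigned to Id1 and Id3 at the top. The Id3 region of this ranking lay 35828 bp from the Id3 TSS, in an intron of E2f2 and nearest to an E2f2 TSS. The mean fold of both libraries was 23.8 ± 12.95 (SD, n = 2) for Id1, 23.1 ± 8.24 for Id3, 12.7 ± 1.85 for Tgfbi, 6.30 ± 1.22 for Rgcc and 6.22 ± 1.78 for Tsc22d1. Id3 stood above Id1 in replicate 1 and Id1 above Id3 in replicate 2, so that this pair could not be ordered. By the deposited fold Tsc22d1 stood above Rgcc in replicate 1 and below it in replicate 2. With the fragments set over the genome-wide background, Rgcc was higher in both libraries (7.79 and 8.11, beside 7.47 and 4.95 for Tsc22d1), so that their order depends on the control level used. Id1 and Id3 both exceeded Tgfbi in each library, and Tgfbi exceeded Rgcc and Tsc22d1 in each. Of the 9914 genes with a shared region, 10.5% had a strongest region with a lower fold at least as high as that of Id3, 15.9% as that of Id1, 28.5% as that of Tgfbi, 78.8% as that of Rgcc and 85.5% as that of Tsc22d1.

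**Figure D2:**
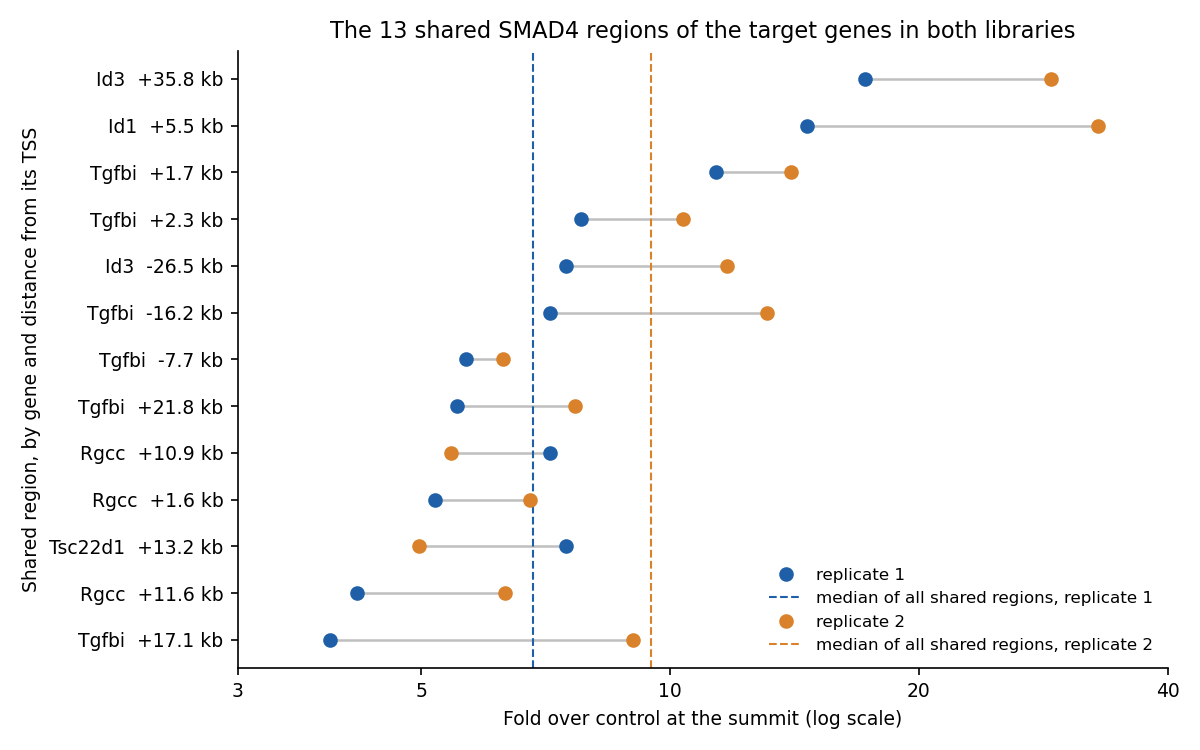
Fold over control (horizontal, log scale) of the 13 shared regions in replicate 1 (blue) and replicate 2 (orange), ordered from top to bottom by the lower fold and labelled by gene and distance from its TSS. Dashed lines mark the library medians over all shared regions, 6.82 and 9.48. Replicate 2 is higher in 11 of 13 regions, and Tsc22d1 and the Rgcc region 10864 bp downstream are the exceptions.

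The median fold of the 13 regions lay near that of all shared regions in each library. It was 7.16 in replicate 1 and 9.02 in replicate 2, beside 6.82 and 9.48 over all shared regions, and by the lower fold 6 ranked above the median region and 7 below it. The fold was higher in replicate 2 in 11 of 13 regions, as in 87.2% of all shared regions. The median ratio of the folds, replicate 2 over replicate 1, was 1.39 in both sets. Their median width was 409 bp, beside 440 bp. In all, the 8 genes had 25 regions, 13 shared, 2 of replicate 1 alone and 10 of replicate 2 alone. A partner in the other library was found for 13 of 15 peaks of replicate 1 (86.7%) and 14 of 24 peaks of replicate 2 (58.3%), and for 69.4% and 59.2% of all peaks. Regions of a single library held 9 to 19 fragments at the summit, and shared regions 10 to 72.

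The windows of the 13 regions were searched for the 10 strings, and each count is given beside the share of all shared windows that hold the string. A SMAD string lay in 3 of 13 windows, all CAGACA, at Tgfbi 16173 bp upstream, Tgfbi 17101 bp downstream and Rgcc 10864 bp downstream, whereas 24.9% of all shared windows held a SMAD string. The variant GTCTGG lay in none (11.2%), nor did the palindrome (0.465%) or the GC-rich element (1.01%). The C/EBP string lay in 4 of 13 windows, the strongest windows of Id1, Id3 and Rgcc and the upstream window of Id3, beside 40.9%, and in 2 of the 11 windows nearest to a target gene. The RUNX string lay in 5, at Id3, Tgfbi and Tsc22d1, beside 26.4%. The PU.1-type string lay in 1 (8.0%) and the further ETS string in none (5.62%), the AP-1 string in 1 (8.91%) and the E-box in none (3.65%). No string was found in 4 of 13 windows, beside 23.5%. The count of SMAD strings followed the width of the window, with 1 of 13 in 101 bp (13.4% of all) and 8 of 13 in 401 bp (43.4%). A match is a description of letters and not a mapped site.

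Promoter sequence of 300 bp, 250 bp before to 50 bp after the TSS, was matched in the RefSeq table of GRCm38 for 6 of the 8 genes, all but Id1 and Fn1. A gene was named when any of its promoters held the string, whereas the shares beside it are per promoter. Tsc22d1, with 5 TSSs, had more promoters than the other genes. GTCTGG lay in promoters of Tgfbi, Rgcc and Tsc22d1, beside 17.9% of 32851 promoters. GGCGCC lay in promoters of Id2, Tgfbi and Tsc22d1 (11.9%), CACGTG in those of Gadd45b and Tsc22d1 (7.15%), and CAGACA in 1 promoter of Tsc22d1 (21.0%). The Id3 promoter of the table, which ends short of the replicate 2 peak, held none of the 10 strings. No shared SMAD4 region lay in any of these promoters.

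A further list of 28 genes known to respond to TGFβ or BMP gave 15 with a shared region, beside 38% of all genes. Of the 28 genes, 9 were nearest to a shared region, against 19% of all genes. The list had 30 shared regions in all. The strongest was at Ski, a SMAD corepressor, 5210 bp downstream of the TSS in an intron, with folds of 20.5 and 34.3. Then followed Ccn2, a matricellular growth factor (13.0 and 15.3, nearest to Gm15270), and Acta2, smooth muscle actin (10.7 and 17.6). Next were Klf10, a TGFβ-inducible zinc finger repressor (10.7 and 11.7), and Smad7, an inhibitory SMAD (9.10 and 14.4, nearest to Gm20544). Smad6, Smad7, Skil and Tgif1, which encode negative regulators of the pathway, had a shared region in the promoter. These were named after their values were seen. Of the 2 shared regions of Smad7, 0 were nearest to its own TSS, the promoter region included. The summit at Smad6 lay 19 bp downstream of the TSS (folds 5.52 and 13.5) and that at Tgif1 267 bp upstream (7.80 and 10.4). No peak of either library was assigned to 11 genes, Ccn1, Pmepa1, Bambi, Thbs1, Atoh8, Id4, Snai1, Snai2, Fstl3, Nog and Itgae.

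Upstream in the pathway, 7 of 12 receptor genes had a shared region, beside 38% of all genes. Fewer, 3 of the 12, were nearest to a shared region, against 19% of all genes. The TGFβ receptor genes Tgfbr1 and Tgfbr2 had 8 and 5 regions, all nearest to their own TSSs, with strongest folds of 13.3 and 21.7 for Tgfbr1 and 12.3 and 21.7 for Tgfbr2. Bmpr1a, Acvr1b and Acvr1 followed with folds of 7.67 and 7.81, 6.50 and 10.8, and 6.17 and 8.57, at regions nearest to other genes. Tgfbr3 and Bmpr1b had no peak. Of the 6 SMAD signal carriers, 4 had a shared region, with strongest folds of 9.10 and 10.4 for Smad4 (nearest to Elac1), 7.98 and 18.1 for Smad2, 6.17 and 8.12 for Smad3 and 5.85 and 14.4 for Smad1. Smad5 and Smad9 had no peak. All 3 genes for E proteins, the partners that ID proteins bind, had a shared region. The share of 38% over all genes is the background of these counts too. Nearest to a shared region were 3 of the 6 signal carriers and all 3 E protein genes, against 19% of all genes. At Tcf3 the strongest lay in the promoter, 277 bp upstream of the TSS (7.47 and 9.02), and at Tcf12 (8.77 and 15.8) and Tcf4 (4.55 and 4.96) in introns. The gene bodies of these lists were long, with medians of 88412.5 bp for the receptors, 65018 bp for the signal carriers and 267568 bp for the E proteins. The median was 13498 bp over all genes and 7590 bp for the 8 target genes, and the part of gene length in these counts was not tested.

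**Figure D3:**
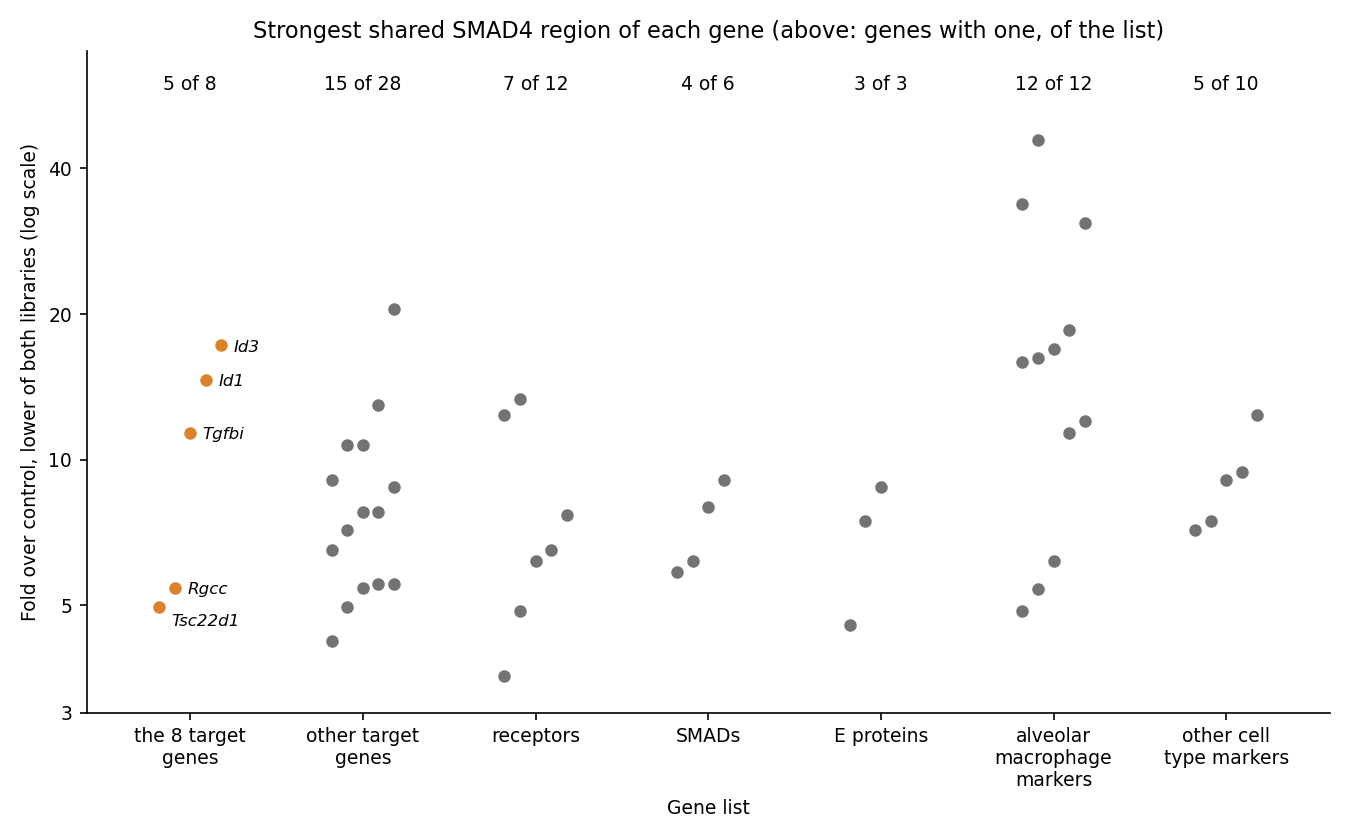
Strongest shared SMAD4 region of each gene, by list. The vertical axis gives the lower fold of both libraries on a log scale, each point is a gene, and the counts above give the genes with a shared region of all genes in the list. Id3, Id1 and Tgfbi lie in the upper range of the target and pathway genes, Ski is above them at 20.5, and the alveolar macrophage markers reach 45.8. The region plotted for Id3 is nearest to E2f2, and some regions of other genes are also nearest to another gene.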

How the data were processed

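SMAD4 binding in AMs was analysed from the peak lists of 2 SMAD4 libraries. The input libraries entered only as control. Reads were trimmed (Cutadapt), aligned to mm10 (Bowtie2), marked for duplicates (PICARD) and filtered (samtools) by the authors, who called peaks in each library separately against input (MACS3, q-value limit 0.05). The deposited columns are a fold ratio over the control level, −log10 p and −log10 q at the summit, and a score, which was not used. Sequencing totals were not used here. Coordinates are 1-based in mm10, the RefSeq GRCm38 assembly.

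Fragments at the summit and the control level were solved from fold and p, with exact Poisson intervals. The curated RefSeq set held 45657 transcripts of 26089 genes on 20 chromosomes. A region counted for a gene when a summit met the rule, and its nearest gene had the closest TSS to the mean summit. Strings were searched on both strands. The genes named were the 8 targets, genes nearest to their regions, and from each other list up to 5 genes with the strongest shared regions and those with no peak. Members and lists were chosen with earlier results of these data known, so that counts are descriptions beside all genes. Replicate numbers follow accession order. The labels and the methods name different suppliers for the antibodies. The assignment of peaks to genes with their merging, and the solving of fragments, were tested on simulated data. The other steps were not. Some genes of the lists are counted but not reported by name here. Alternatives were another window, peak limit, overlap, gene set, string window and each library alone. Python 3.11.15, numpy 2.4.6, pandas 2.3.3, scipy 1.17.1, pysam 0.24.0 and matplotlib 3.10.9 were used.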

Additional observations from a re-analysis of the deposited data

How the results depend on the processing

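Under the other windows, peak limits, overlap rules and gene models, and with each library alone, 4 to 7 of the 8 genes had a shared region, or a peak where 1 library was used. Each of these counts was within 1.5 times the reported 5. Of the counts recomputed for whole sets (genes, regions and windows, in the target, other target, pathway and all-gene sets), 58 were within 1.5 times the reported value and 7 beyond it. Of the values for single genes and single strings, 127 stayed within their limit (1.5 times for counts, 1 SD for folds) and 18 did not. Region counts moved in some settings for Id1, Id2, Id3, Fn1, Tsc22d1 and Gadd45b. With a window of 10 kb, the genes with a shared region fell to 4998 of all genes (19.2%) and to 9 of the 21 pathway genes, 4 of the 8 targets had one, and Id3 had none. With a window of 100 kb the shared regions of the 8 genes numbered 20. Peaks of 1 library alone gave 15 to 24 regions by the rule and 13 to 20 nearest to a target gene, the higher count from replicate 2. Windows with a SMAD string numbered 1 with 50 bp on each side of the summit and 8 with 200 bp, and 2 to 3 with the summits of 1 library. With fragments set over the genome-wide background, the strongest mean fold of Rgcc was 7.95 in place of 6.30, above Tsc22d1 in both libraries, and those of the other genes moved by less than 1 SD. No paired analysis was run, since no groups were compared and no result comes from a test. The labels give no replicate numbers. With 2 libraries an SD rests on 2 values. Summits of 9 to 22 fragments have wide counting intervals. They include those at Tsc22d1, Gadd45b and the Id3 promoter and several at Tgfbi and Rgcc. Peaks below the q-value limit were not listed. The share of regions whose target is another gene was not tested.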
